A study of Mus musculus with 10 samples.

Results

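The genes described here are 10 receptors and receptor-like proteins by which macrophages bind and take up debris: Marco, Msr1, Cd163, Cd5l, Stab1, Stab2, Mrc1, Olr1, Scarb1 and Timd4. They were found by symbol in a table of 55421 genes, and all 10 passed the filter on low counts that left 18509 genes for testing. The family was selected on measured values of this same comparison, among them the fold changes of Marco and Cd5l. The fold changes, confidence intervals and adjusted p-values of the 10 genes are therefore a description of where each gene fell, and nothing is supported with them.

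The tissue was ulcer, made by surgical resection in db/db mice, a strain whose leptin receptor is mutant and which becomes obese and diabetic. Of the 10 libraries, 5 came from ulcers that received Fu Huang ointment along with saline and 5 from ulcers that received saline alone. Both groups are diabetic and both received saline, and tissue was taken after 7 days of administration. Whether the 5 libraries of a group stem from 5 different mice is not stated, so the p-values reflect only how these samples vary, and part of that may be technical. The age of the mice is not stated either. Total estimated counts were 47807353 to 62896034 in the ointment libraries and 58145331 to 62664018 in the saline libraries. Pearson correlations of log2 CPM between libraries across genes lay at 0.899 to 0.925 for pairs of the same group and at 0.868 to 0.916 for pairs across them, and genes are not independent replicates. Levels are given as CPM, each count relative to its library's total after scaling between libraries by the TMM method. In bulk tissue, a higher level from more cells of a type and from more RNA per cell cannot be told apart.

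Scavenger receptors are a group of structurally unrelated proteins that share the habit of binding modified lipoproteins, bacteria, dying cells and other polyanionic or altered material. In a wound, macrophages use them to clear bacteria, apoptotic neutrophils, haemoglobin from bled red cells and collagen fragments. Some members, such as Stab2, Scarb1 and Olr1, are also made by endothelial, steroid-handling, fat or other non-macrophage cells.

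In the ointment ulcers Marco and Cd5l were higher and passed the threshold of 0.05 on the adjusted p by edgeR's quasi-likelihood test with Benjamini-Hochberg adjustment over all genes. The other 8 genes did not pass. Msr1, Olr1 and Cd163 had higher values in every ointment library than in any saline library, Mrc1 and Stab1 had higher means with overlapping groups, and Stab2, Scarb1 and Timd4 had means close to each other in both groups. The calls, 2 of 10 higher, stand beside 0.692% of all tested genes called higher, 0.983% called lower and 1.67% called in either direction. Groups that did not overlap, with ointment higher, were found for 5 of the 10 genes and for 3.11% of all tested genes, with 6.54% not overlapping in either direction. The median log2 fold change of the 10 genes was 0.73, against -0.003 over all genes tested, of which 49.7% were positive. Since the choice of genes used this contrast, nothing is read from these shares.

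**Figure D1:**
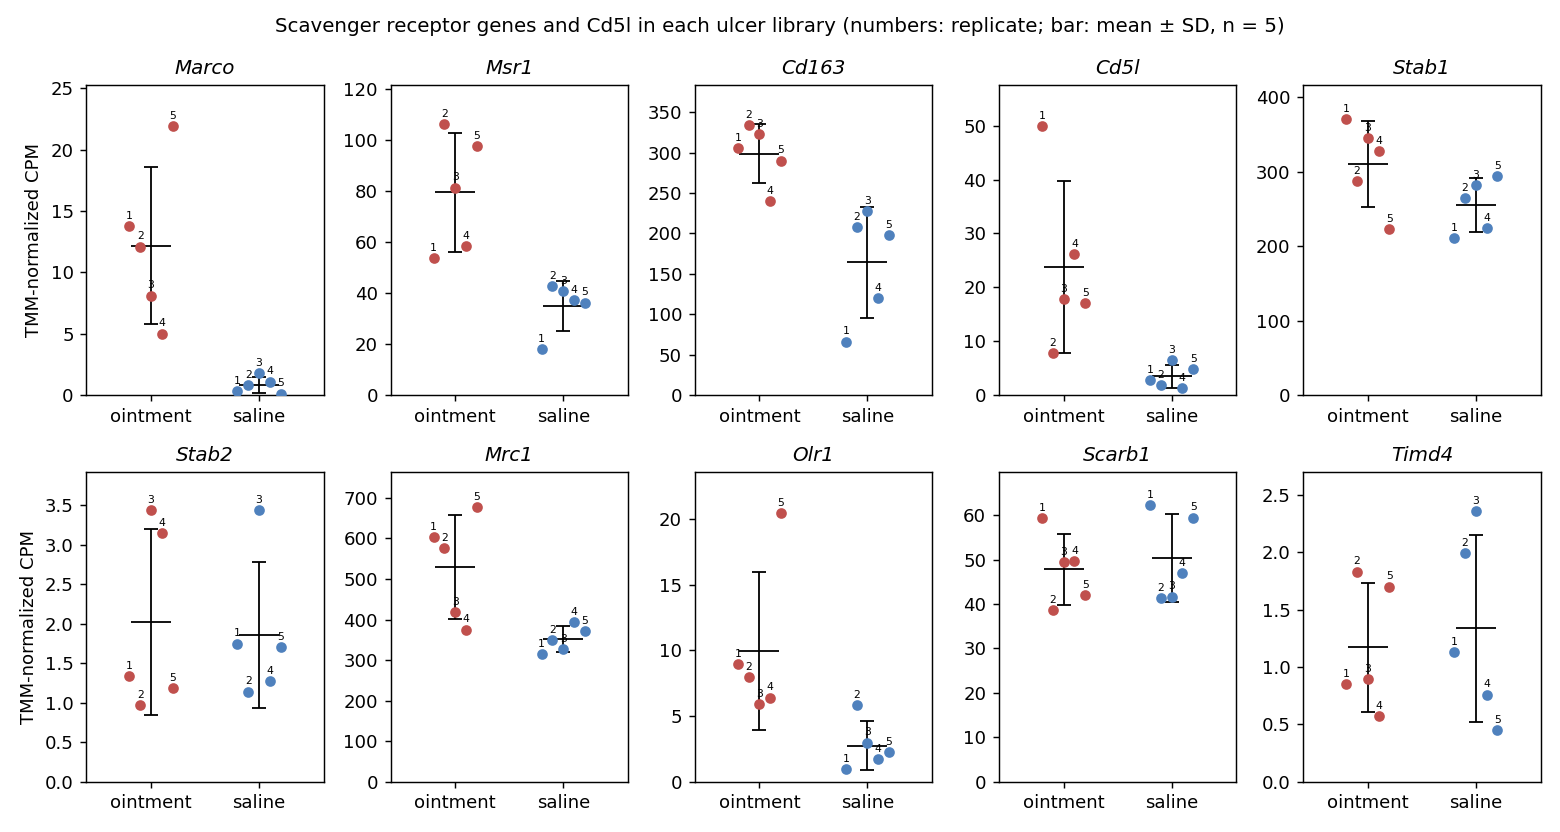
Level of each of the 10 genes in every library, in TMM-normalized CPM on a linear axis from 0, with ointment at left and saline at right; points are libraries numbered by replicate, and bars are the mean ± SD of 5 libraries. Marco, Msr1, Cd163, Cd5l and Olr1 show no overlap between the groups, while Stab2, Scarb1 and Timd4 lie in the same range in both.

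The stretch of DNA around the start of transcription is shown for Marco, Cd5l and Olr1, the genes with the highest fold changes of the 10. Sequences are from RefSeq on GRCm38.p6 and run 5′ to 3′ on the gene's own strand, from 250 bases before the start site to 50 after it. Capitals mark matches to a PU.1 box (GAGGAAG; PU.1 is the master regulator of macrophages), an AP-1 site (TGANTCA) or a nuclear receptor half-site (AGGTCA), on either strand. The Marco window is chr1:120504975-120505274 on the minus strand, the Cd5l window is chr3:87357631-87357930 on the plus strand and the Olr1 window is chr6:129507116-129507415 on the minus strand.
Marco: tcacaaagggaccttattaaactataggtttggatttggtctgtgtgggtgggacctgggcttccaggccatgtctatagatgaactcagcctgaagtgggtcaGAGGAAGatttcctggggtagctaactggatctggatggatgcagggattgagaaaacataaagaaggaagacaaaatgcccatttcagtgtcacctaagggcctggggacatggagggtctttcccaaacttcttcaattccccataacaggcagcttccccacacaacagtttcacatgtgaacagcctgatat
Cd5l: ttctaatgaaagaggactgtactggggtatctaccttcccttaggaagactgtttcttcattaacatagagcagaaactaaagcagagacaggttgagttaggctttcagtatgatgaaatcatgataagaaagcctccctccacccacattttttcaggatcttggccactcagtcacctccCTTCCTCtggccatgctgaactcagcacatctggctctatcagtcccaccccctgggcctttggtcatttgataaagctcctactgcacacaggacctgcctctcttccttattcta
Olr1: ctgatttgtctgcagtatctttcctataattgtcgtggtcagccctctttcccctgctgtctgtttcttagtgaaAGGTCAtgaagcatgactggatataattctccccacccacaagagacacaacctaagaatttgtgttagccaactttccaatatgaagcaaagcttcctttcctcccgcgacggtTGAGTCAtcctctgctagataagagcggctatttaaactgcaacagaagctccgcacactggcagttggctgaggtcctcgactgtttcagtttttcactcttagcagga

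In the Marco window the PU.1 letters begin 146 bases before the start site, and in the Cd5l window they lie on the opposite strand and begin 67 bases before it. The Olr1 window holds an AP-1 match 60 bases and a half-site match 175 bases before the start. Windows were found for 8 of the 10 genes, all but Msr1 and Scarb1. PU.1 letters were in 3 of these 8 windows (Cd5l, Marco and Mrc1) and in 13.6% of 32851 promoter windows of the same length. The half-site was in 3 (Olr1, Stab2 and Timd4) and in 16.3% of all windows, and the AP-1 letters were in 1 (Olr1) and in 7.81%. An antioxidant response element (TGACNNNGC) was in 0 of the 8 and in 12.4% of all windows. No matches of different motifs overlapped each other in the 8 windows. A match is a description of the letters and not a bound site.

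Marco and Msr1 are the class A scavenger receptors of macrophages, trimers with a collagen-like stalk that bind bacteria and modified low-density lipoprotein. Marco (ENSMUSG00000026390, chromosome 1, 120474538 to 120505024, minus strand, GRCm38) had 13.8, 12.1, 8.11, 5.0 and 21.9 CPM in ointment libraries 1 to 5, against 0.333, 0.772, 1.79, 1.08 and 0.0991 CPM in saline libraries 1 to 5. Every ointment library lay above every saline library, and the lowest ointment value was 2.8 times the highest saline value. The saline values rest on few counts, between 6 in saline 5 and 108 in saline 3. Means were 12.2 ± 6.41 CPM with ointment and 0.813 ± 0.663 CPM with saline (SD, n = 5 each), a log2 fold change of 3.90 with a standard error (SE) of 0.72, or 14.9-fold. Its 95% interval was 2.29 to 5.51 and its adjusted p 0.0309 by edgeR. Marco kept its place below the threshold without ointment 4, saline 3 or saline 5. It did not pass without ointment 1, 2, 3 or 5 or without saline 1, 2 or 4, when its adjusted p reached 0.0753 and its log2 fold change was 3.58 to 4.02. Without both saline 1 and ointment 5, a choice made after the data were seen, the adjusted p was 0.14 for Marco and 0.171 for Cd5l.

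Msr1 (ENSMUSG00000025044, chromosome 8, 39581685 to 39642673, minus strand) had 53.6, 106, 81.2, 58.3 and 97.5 CPM in ointment libraries 1 to 5, against 17.9, 42.5, 40.6, 37.1 and 36.2 CPM in saline libraries 1 to 5. The groups did not overlap, and saline 1 stood below the other saline libraries. Its log2 fold change was 1.18 (SE 0.27, 95% interval 0.59 to 1.78), 2.27-fold, with an adjusted p of 0.0607 by edgeR that missed the threshold. With DESeq2's Wald test the adjusted p was 0.00147.

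Cd163 and Cd5l are built of repeated scavenger receptor cysteine-rich domains. Cd163 is the membrane receptor by which macrophages take up haemoglobin bound to haptoglobin, and Cd5l, also called AIM, is a protein secreted by tissue macrophages that supports their survival and, once taken up by fat cells, inhibits fatty acid synthase in mice. Cd163 (ENSMUSG00000008845, chromosome 6, 124304656 to 124330527, plus strand) had 306, 334, 323, 240 and 290 CPM in ointment libraries 1 to 5, against 66.0, 208, 228, 120 and 198 CPM in saline libraries 1 to 5. The groups came close without overlapping, since ointment 4, the lowest treated library, was 1.05 times saline 3, the highest saline library. Its spread was wider with saline, where the SD was 41.8% of the mean, than with ointment, where it was 12.3%. The log2 fold change of Cd163 was 0.87 (SE 0.30, 95% interval 0.20 to 1.53, adjusted p = 0.172 by edgeR).

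Cd5l (ENSMUSG00000015854, chromosome 3, 87357881 to 87371073, plus strand) had 49.9, 7.75, 17.8, 26.1 and 17.1 CPM in ointment libraries 1 to 5, against 2.75, 1.80, 6.46, 1.30 and 4.79 CPM in saline libraries 1 to 5. All ointment libraries were above all saline libraries, but ointment 2 was only 1.2 times saline 3, and ointment 1 was 6.43 times ointment 2. Means were 23.7 ± 16 CPM with ointment and 3.42 ± 2.16 CPM with saline (SD, n = 5 each), a log2 fold change of 2.79 (SE 0.58), or 6.93-fold. The 95% interval was 1.5 to 4.09 and edgeR's adjusted p was 0.0457. With 1 library left out, Cd5l passed only without ointment 2 (adjusted p = 0.0458). Without any of the other 9 libraries, ointment 1, 3, 4 and 5 and saline 1 to 5, the adjusted p was 0.0605 to 0.116 and the log2 fold change 2.33 to 3.15.

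Stab1 and Stab2, the stabilins or class H scavenger receptors, carry fasciclin and EGF-like domains. Stab1 marks alternatively activated and resident macrophages as well as sinusoidal endothelium, and Stab2 is the hyaluronan clearance receptor of sinusoids. Stab1 (ENSMUSG00000042286, chromosome 14, 31139013 to 31168641, minus strand) had 371, 288, 345, 328 and 223 CPM in ointment libraries 1 to 5, against 211, 265, 282, 224 and 294 CPM in saline libraries 1 to 5. The groups overlapped, with ointment 5 inside the saline range and below 4 of the 5 saline libraries. Its log2 fold change was 0.29 (SE 0.16, 95% interval -0.06 to 0.63, adjusted p = 0.396 by edgeR).

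Stab2 (ENSMUSG00000035459, chromosome 10, 86841198 to 87008025, minus strand) was low, with 1.34, 0.972, 3.44, 3.15 and 1.19 CPM in ointment libraries 1 to 5, against 1.75, 1.14, 3.44, 1.27 and 1.70 CPM in saline libraries 1 to 5. The ranges coincided, and the log2 fold change of 0.12 (95% interval -0.89 to 1.13, adjusted p = 0.937 by edgeR) turned negative without ointment 3 or ointment 4. Its locus overlaps antisense genes, and that of Stab1 overlaps Nt5dc2 on the opposite strand. Whether the library kit marks strand is not stated, so reads of such partners cannot be told apart. Mrc1 also holds the microRNA gene Mir511, and Scarb1 overlaps Gm42633, each on the gene's own strand.

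Mrc1, the mannose receptor CD206, binds mannosylated glycans and collagen and is a standard marker of alternatively activated macrophages. Mrc1 (ENSMUSG00000026712, chromosome 2, 14229392 to 14332057, plus strand) had 603, 576, 419, 375 and 677 CPM in ointment libraries 1 to 5, against 314, 350, 327, 393 and 372 CPM in saline libraries 1 to 5. Saline 4 was above ointment 4, so the groups overlapped by that pair. Means were 530 ± 128 CPM with ointment and 351 ± 32.5 CPM with saline (SD, n = 5 each), a 1.51-fold difference (log2 fold change 0.59, SE 0.17, 95% interval 0.22 to 0.97, adjusted p = 0.108 by edgeR). Without ointment 4 its adjusted p was 0.0467.

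Olr1, or LOX-1, is a C-type lectin receptor for oxidised low-density lipoprotein found on endothelium, macrophages and myeloid cells. Olr1 (ENSMUSG00000030162, chromosome 6, 129485244 to 129507165, minus strand) had 8.97, 7.96, 5.90, 6.4 and 20.5 CPM in ointment libraries 1 to 5, against 0.965, 5.82, 2.98, 1.69 and 2.26 CPM in saline libraries 1 to 5. The groups met at the edge: ointment 3, at 5.90 CPM, was 1.01 times saline 2. Ointment 5 stood apart from the other ointment libraries. The log2 fold change was 1.86 (SE 0.52, 95% interval 0.70 to 3.02, 3.62-fold, adjusted p = 0.106 by edgeR), and it was 1.41 to 2.34 when any 1 library was left out, with no call.

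Scarb1 is the class B receptor for high-density lipoprotein, expressed in fat, endothelium and sebaceous and steroid-making cells as well as macrophages. Scarb1 (ENSMUSG00000037936, chromosome 5, 125277087 to 125341094, minus strand) had 59.4, 38.7, 49.5, 49.7 and 42.1 CPM in ointment libraries 1 to 5, against 62.3, 41.3, 41.7, 47.0 and 59.5 CPM in saline libraries 1 to 5. The groups overlapped almost fully, with a log2 fold change of -0.07 and a 95% interval of -0.44 to 0.29 (adjusted p = 0.888 by edgeR). Timd4, the phosphatidylserine receptor TIM-4 by which long-lived resident macrophages tether dying cells (ENSMUSG00000055546, chromosome 11, 46810800 to 46844332, plus strand), had 0.852, 1.83, 0.892, 0.573 and 1.70 CPM in ointment libraries 1 to 5, against 1.13, 1.99, 2.36, 0.759 and 0.446 CPM in saline libraries 1 to 5. Timd4 was thus at about 1 CPM in both groups, and its 95% interval of -1.31 to 0.93 around a log2 fold change of -0.19 (adjusted p = 0.904 by edgeR) includes differences in both directions. The signs of both estimates were not fixed: Scarb1 turned positive without saline 1, and Timd4 without saline 2 or saline 3.

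**Figure D2:**
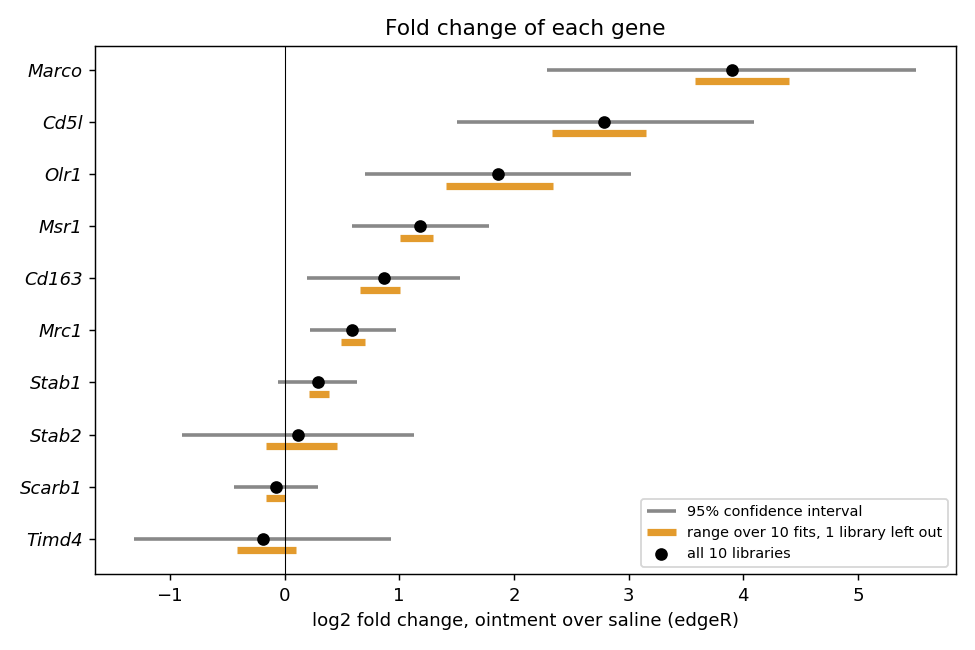
Log2 fold change of each gene, ointment over saline, with its 95% confidence interval (grey) and the range over 10 fits that each leave out 1 library (orange). The intervals of Marco, Cd5l, Olr1, Msr1, Cd163 and Mrc1 lie above 0 and those of the other 4 genes include 0; these are unadjusted intervals.

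Compared per length of exon, the genes spanned levels from Mrc1 at the top to Stab2 at the bottom in both groups. In ointment ulcers the order of mean CPM per kb of exon was Mrc1 (83.2), Cd163 (54.7), Stab1 (30.2), Msr1 (12.5), Cd5l (11.7), Marco (6.33), Scarb1 (5.63), Olr1 (2.79), Timd4 (0.539) and Stab2 (0.231). In saline ulcers the order was Mrc1 (55.1), Cd163 (30.0), Stab1 (24.8), Scarb1 (5.92), Msr1 (5.49), Cd5l (1.68), Olr1 (0.768), Timd4 (0.616), Marco (0.422) and Stab2 (0.212). Among neighbours in the ointment order, the ranges over libraries were separate between Cd163 and Stab1, between Stab1 and Msr1 and between Olr1 and Timd4, and overlapped for every other pair. In the saline order they were separate between Mrc1 and Cd163 and between Stab1 and Scarb1. Marco thus stood low in saline ulcers, with a range that overlapped those of Timd4 and Stab2, and mid-way in ointment ulcers, with a range that overlapped those of Cd5l and Scarb1. The main receptors by transcript level were Mrc1, Cd163 and Stab1 in either group.

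**Figure D3:**
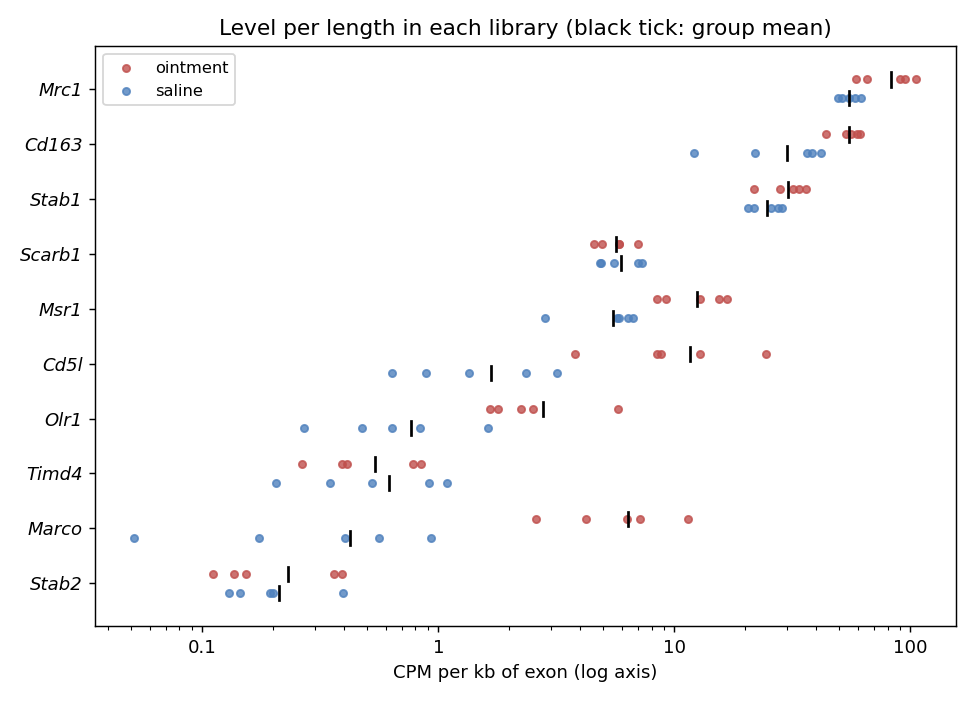
Level of each gene per kb of exon in every library, on a log axis, with ointment above saline for each gene and a black tick at each group mean; genes are ordered by their saline mean. Mrc1, Cd163 and Stab1 lie above 10 CPM per kb in all 10 libraries, and Marco is the gene whose groups lie farthest apart.

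Markers of macrophages were read in the same fit. All 16 markers of a macrophage list had positive log2 fold changes, 4 of them rose (Adgre1, Cd68, Ctss and Trem2, the last pair named after their values were seen) and 12 did not pass. The 16 markers, led by Lyz2 with 44.4% of their sum in ointment ulcers and 41.8% in saline ulcers, summed to 9010 to 11918 CPM in the ointment libraries and 3837 to 6578 CPM in the saline libraries. Adgre1, a surface receptor that marks mouse macrophages, had 271 ± 19.4 CPM with ointment and 148 ± 17 CPM with saline (SD, n = 5 each), a log2 fold change of 0.87 (adjusted p = 0.00649 by edgeR).

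Set against that sum, the 10 genes separated. Marco was 0.147, 0.126, 0.0715, 0.0555 and 0.183% of the macrophage sum in ointment libraries 1 to 5, against 0.00677, 0.0148, 0.0465, 0.0168 and 0.00151% in saline libraries 1 to 5, still without overlap and with means 6.76 times apart. Cd5l averaged 0.240% with ointment and 0.0704% with saline, a ratio of 3.41 with overlapping groups. Olr1 had a ratio of 1.76 and Msr1 of 1.15, both with overlap. Cd163 (0.910), Mrc1 (0.777) and Stab1 (0.629) had ratios below 1 relative to this sum, and their groups overlapped. Scarb1 was lower relative to the sum without overlap, at 0.353 to 0.632% with ointment and 0.736 to 1.27% with saline. Stab2 (0.518) and Timd4 (0.401) had ratios below 1 with overlap. The sum is led by Lyz2, and how far it tracks macrophages alone was not tested. Neutrophil markers also had a higher mean sum, 4427 CPM with ointment and 1671 CPM with saline. The part of such cells in the macrophage sum was not tested.

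Dividing by Adgre1 alone gave ratios of 8.26 for Marco, 3.87 for Cd5l, 2.01 for Olr1, 1.26 for Msr1, 1.01 for Cd163, 0.826 for Mrc1 and 0.663 for Stab1. On that scale Stab1 did not overlap either, at 0.909 to 1.28 times Adgre1 with ointment and 1.57 to 1.95 times with saline. These ratios reuse the values that chose the genes and carry no test. The part of macrophage number in the differences of single genes was not tested.

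**Figure D4:**
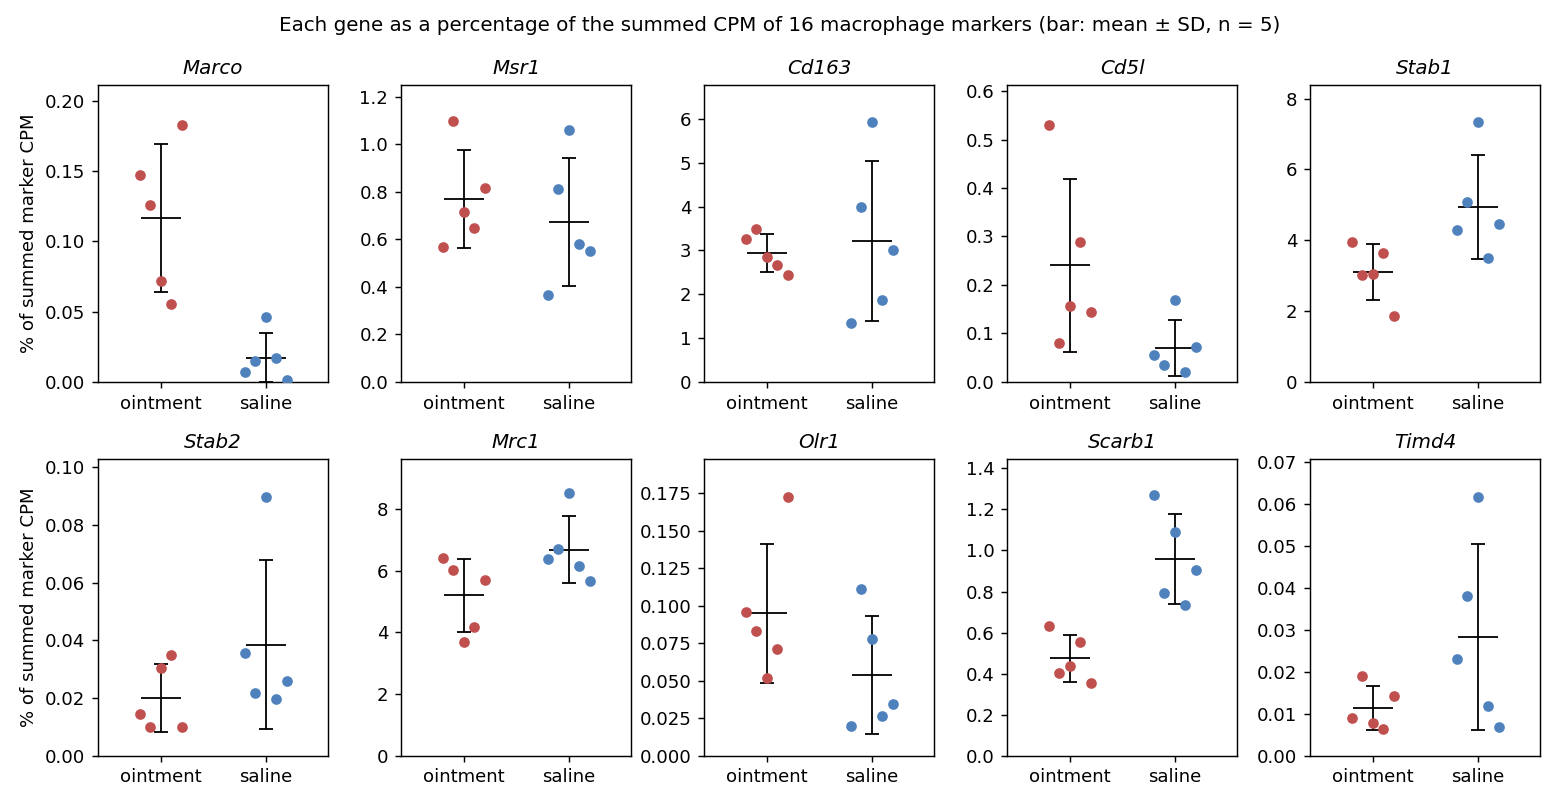
Each gene's CPM as a percentage of the summed CPM of 16 macrophage markers in the same library, with ointment at left and saline at right; points are libraries and bars are the mean ± SD of 5. Marco stays higher without overlap, Scarb1 is lower without overlap, and the other 8 genes overlap.

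Within groups the genes did not vary as a block. Likeness was measured as Pearson's r of log2 CPM over the 10 libraries after each group's mean was taken off, given as a description since all points share libraries and depth. Msr1 and Cd163 deviated together (r = 0.75, Spearman's rho 0.50), both lowest in saline 1, and Marco deviated with Timd4 (r = 0.76, rho 0.66). Marco and Cd5l did not deviate together (r = -0.14, rho -0.18). Ointment 1 held the most Cd5l and the least Msr1 of its group, and ointment 5 held the most Marco, Mrc1 and Olr1 and the least Stab1. Scarb1 deviated against Msr1 (r = -0.83, rho -0.93), and Stab2 against Mrc1 (r = -0.80, rho -0.67).

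The spread within groups also differed between the genes. On the log2 scale its SD was 1.19 for Marco and 0.96 for Cd5l. That was higher than in 86.1% and 87.4% of tested genes whose mean over all 10 libraries lay within 2-fold of theirs (6.49 and 13.6 CPM). The saline means of Marco and Cd5l were far lower (0.813 and 3.42 CPM), so genes chosen by the mean of all libraries need not match their level there. It was 0.25 for Stab1, 0.26 for Scarb1 and 0.27 for Mrc1, each below the median of such genes (0.29, 0.30 and 0.30). Cd163, at 0.55, and Msr1, at 0.48, had SDs above 74.4% and 72.5% of genes of like level.

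**Figure D5:**
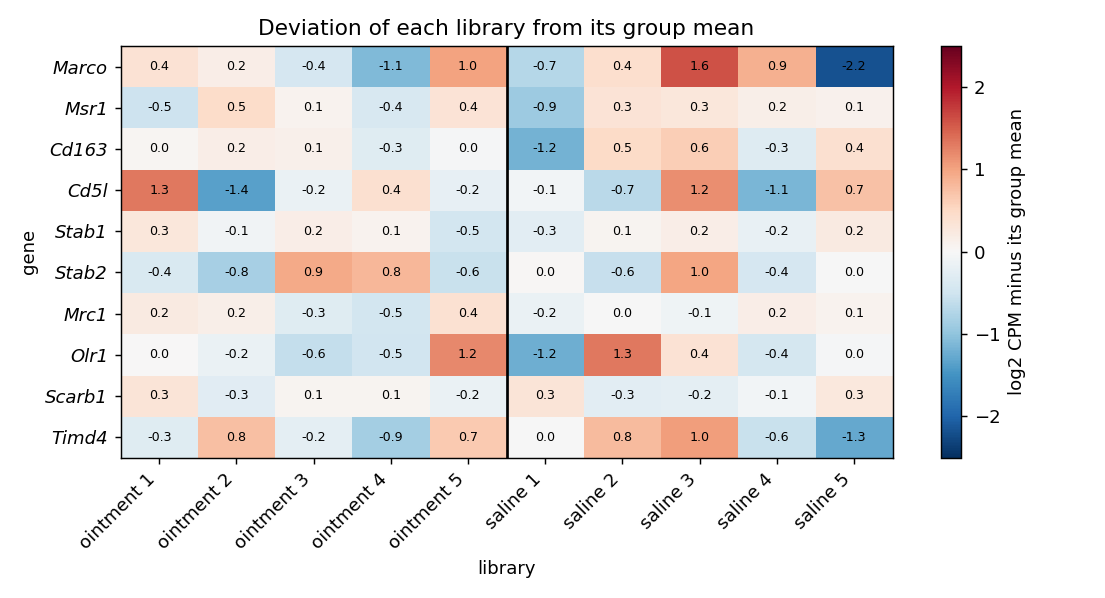
Log2 CPM of each gene in each library minus the mean of its group, with ointment libraries left of the line and saline libraries right of it; red is above and blue below the group mean. Saline 1 is low for Msr1, Cd163 and Olr1, and the Marco and Cd5l rows differ from each other.

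Among 12303 genes tested with at least 5 CPM on average, those most like Marco in this measure were Alcam (r = 0.929), Rnf170 (0.926) and Tprgl (0.921). Those most like Cd5l were Iqce (0.963), Selenow (0.933) and Slc22a5 (0.932). For Msr1 they were Ms4a4a (0.979), Hk3 (0.971) and Inpp5d (0.951), and for Cd163 they were Vps37c (0.959), Mzt1 (0.954) and Nfkbil1 (0.953). For Mrc1 they were Cacybp, Ankrd44 and Dapp1, for Olr1 Nr4a3, Ctdp1 and Akap13, and for Stab1 Tada3, Micall1 and Gosr2. For Stab2 they were Clec2d, Aamdc and Zdhhc1, for Scarb1 Ufc1, Smarcad1 and Elk1, and for Timd4 Fam234b, Trmt112 and Atf2. With 10 libraries and this many genes, high values of r arise readily.

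Other scavenger receptors went both ways. Of 25 tested from a list of 26, 3 rose, none fell and 22 did not pass, with a median log2 fold change of -0.02. Cd36, the class B receptor that takes up fatty acids and oxidised lipoprotein, had 780 ± 124 CPM with ointment and 214 ± 47.7 CPM with saline (SD, n = 5 each), a 3.65-fold rise (SE 0.17 on the log2 scale, adjusted p = 0.00205 by edgeR). Cd68, a lysosomal glycoprotein of macrophages, had 269 ± 27.4 CPM with ointment and 157 ± 14.3 CPM with saline (log2 fold change 0.78, adjusted p = 0.0125 by edgeR). The inhibitory lectin receptor gene Clec4a2 had 94.2 ± 25.7 CPM with ointment and 46.0 ± 8.35 CPM with saline (1.03, adjusted p = 0.0354 by edgeR). Cd36 and Cd68 passed in all 10 fits that left out 1 library. Clec4a2 did not pass without ointment 2, 3 or 5 or without saline 1, 2, 3 or 4 (adjusted p 0.0763 to 0.0898). Of the rest, Ager, the receptor for glycated proteins, was at 0.62 (adjusted p = 0.162), the engulfment receptor gene Megf10 at -0.76 (0.227) and the cysteine-rich domain gene Ssc5d at -0.88 (0.233).

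Genes for the uptake of dying cells had a positive median (0.32, 26 tested, 19 positive) and none passed by edgeR. At an unadjusted p below 0.05 there were 7, DESeq2 called 6 and limma voom 0. Over all 18509 genes, 49.7% were positive, DESeq2 called 1677 and limma voom 357. An unadjusted p below 0.05 was found for 3197 of all genes by edgeR without robust dispersion. Nothing is read from the counts of the list. Tyro3, a receptor kinase for the bridging proteins Gas6 and protein S, was at -0.59 (adjusted p = 0.0837 by edgeR) and passed without ointment 2 (0.0441). Cd300lf, a lipid-binding receptor of myeloid cells, had 147 ± 104 CPM with ointment and 31.2 ± 19.3 CPM with saline (2.24, adjusted p = 0.0922). The "don't eat me" signal gene Cd47 was at 0.38 (adjusted p = 0.12).

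Genes that handle what these receptors take up, haemoglobin, haem, iron and lipoproteins, had a median log2 fold change of 0.27. Of 23 tested, 2 rose, none fell and 21 did not pass. Plin2, which coats lipid droplets, had 801 ± 96.9 CPM with ointment and 313 ± 42.5 CPM with saline (2.56-fold, with an adjusted p of 0.00205 by edgeR). The ferritin light chain gene Ftl1 had 2420 ± 181 CPM with ointment and 1736 ± 128 CPM with saline (0.48, adjusted p = 0.0339). Hmox1, the enzyme that breaks down haem, had 815 ± 217 CPM with ointment and 379 ± 129 CPM with saline (1.1, adjusted p = 0.0757). Npc2, a lysosomal cholesterol carrier, was at 0.37 (adjusted p = 0.0759) and Blvra, a biliverdin reductase, at 0.45 (0.0965). Hp, the haptoglobin ligand of Cd163, named here for that link with its value seen, was at 0.40 (adjusted p = 0.776). Plin2 passed in all 10 fits that left out 1 library. Ftl1 passed only without ointment 4 (adjusted p = 0.0347) and was at 0.0544 to 0.0882 without ointment 1, 2, 3 or 5 or any saline library. Hmox1 (0.0467) and Npc2 (0.0493) passed without ointment 4.

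Of 24 tested transcription factor and cytokine genes known to act on these receptors in macrophages, none passed by edgeR (median log2 fold change 0.21, 18 positive). At an unadjusted p below 0.05 there were 4, DESeq2 called 3 and limma voom 0. Over all 18509 genes, 49.7% were positive, DESeq2 called 1677, and 3197 had an unadjusted p below 0.05 by edgeR without robust dispersion. Nothing is read from the counts of these regulators. The receptor gene Csf1r, on which macrophage survival depends, had 501 ± 46.3 CPM with ointment and 343 ± 63.5 CPM with saline (0.55, adjusted p = 0.0816 by edgeR). Spi1, which encodes PU.1, had 115 ± 32.0 CPM with ointment and 53.6 ± 19.3 CPM with saline without overlap (1.11, adjusted p = 0.0821), and Irf8 was at 0.37 (0.121). Nr1h3, the liver X receptor that induces Cd5l in mouse macrophages, named for that link with its value seen, had 19.7 ± 4.61 CPM with ointment and 18.6 ± 5.96 CPM with saline (0.09, adjusted p = 0.91).

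Markers of other cells that make some of these proteins were also read. Neutrophil markers summed to 1972 to 8416 CPM with ointment and 908 to 2869 CPM with saline, with 11 of 12 tested positive and Mmp9, a matrix protease, called higher. Monocyte markers summed to 1481 to 2594 CPM with ointment and 1505 to 1998 CPM with saline, with 8 of 12 positive and none called. Markers of resident macrophages summed to 1126 to 1888 CPM with ointment and 676 to 1184 CPM with saline, with 11 of 15 positive and none called by edgeR, and Clec4f, which defines liver Kupffer cells, was at 0 in every library. Markers of sinusoidal and lymphatic endothelium, which make Stab1 and Stab2, summed to 486 to 673 CPM with ointment and 274 to 468 CPM with saline, with 6 of 11 positive and none called. Most of that sum was Fcgr2b (288 ± 99.5 CPM with ointment, 150 ± 43.4 CPM with saline) and Pdpn (138 ± 35.1 and 99.6 ± 41.7 CPM). Pdpn is also on the fibroblast list, and Lyve1 of this list is also on the resident macrophage list. Which cells Fcgr2b came from was not tested. The 5 negative ones were Dnase1l3, Reln, Prox1, Flt4 and Ccl21a, so the higher sum was not shared by all of its markers. Blood endothelial markers summed to 510 to 950 CPM with ointment and 836 to 1228 CPM with saline, with 0 of 11 positive and none called. Adipocyte markers, relevant to Scarb1, summed to 1684 to 2838 CPM with ointment and 692 to 2010 CPM with saline, with 6 of 8 positive. Lep, the leptin gene, was called higher at 156 ± 104 CPM with ointment and 8.71 ± 4.74 CPM with saline. The other 7 were not called. Fabp4 (1239 CPM with ointment, 613 CPM with saline) and Lpl (658 and 317 CPM) made up most of the sum. The negative ones were Adipoq (39.3 ± 12.2 CPM with ointment, 96.4 ± 63.1 CPM with saline) and Retn (17.5 ± 10.4 and 27.5 ± 11.7 CPM). The marker genes named in this paragraph, apart from Clec4f, are named after their values were seen. The part of these cells in the values of the 10 genes was not tested.

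Hepatocyte markers, read because liver macrophages make much Cd5l and Timd4, summed to 2.52 to 8.03 CPM with ointment and 19.9 to 129 CPM with saline, with 2 of 7 tested positive, 1 called lower and Cyp3a11 at 0 in every library. That gene was Cyp2e1, named after its value was seen, which had 2.20 ± 1.68 CPM with ointment and 66.1 ± 44.0 CPM with saline, and it made up most of the saline sum. Of the other 6, also named after their values were seen, transthyretin (Ttr) had 0.801 ± 0.461 CPM with ointment and 0.150 ± 0.068 CPM with saline without overlap (adjusted p = 0.0517 by edgeR). Albumin (Alb) had 0.700 ± 0.300 CPM with ointment and 1.67 ± 1.24 CPM with saline, and Apoa2 had 0.594 ± 0.108 CPM with ointment and 0.479 ± 0.220 CPM with saline. The remaining 3, Apoa1, Ahsg and Serpina1a, had negative log2 fold changes and did not pass. The part of liver cells in the Cd5l values was not tested. B cell markers summed to 33.4 to 60.8 CPM with ointment and 36.1 to 172 CPM with saline (1 of 6 tested positive, none called). Red cell markers summed to 221 to 3049 CPM with ointment and 362 to 3886 CPM with saline (0 of 6 positive, none called). Keratinocyte markers summed to 16191 to 29696 CPM with ointment and 20545 to 29288 CPM with saline (1 of 10 positive, none called), and fibroblast markers to 18391 to 59180 CPM with ointment and 36064 to 54848 CPM with saline (3 of 9 positive, none called), so that markers of both skin cell types were detected in every library.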

How the data were processed

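Total RNA of ulcer tissue was isolated with an RNeasy kit and made into SMARTer mRNA libraries, per the labels' protocols. Per the submitters' processing notes the reads were set against GRCm38 (mm10). Which aligner, counter and annotation were used is not given in the sources used here. Deposited by the authors was 1 table of whole numbers per gene with no normalization. The values 4 and 8 occurred 9202 and 4812 times, more often than the numbers beside them. The deposited values were therefore treated as estimated counts rather than reads, and they needed no rounding. What 1 deposited unit stands for is not stated, so the counts given here may be larger than the numbers of sequenced fragments. All 10 columns matched a label by description.

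Groups were compared with edgeR 4.0.16 (R 4.3.3): filterByExpr (minimum count 10, minimum total 15), TMM normalization, robust quasi-likelihood F-test on group alone, two-sided, with Benjamini-Hochberg adjustment over 18509 genes and a threshold of 0.05. Levels per kb used exon unions of GENCODE release M21 on GRCm38. The procedure was checked on simulated counts. The 10 genes and all lists were chosen with earlier results of these data known. Named from the 4 pathway lists were genes past the threshold and the 3 next by p; other names are marked where they occur.

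The settings varied were the scaling (size factors from DESeq2, upper quartile, or library sizes alone), the filter (none, or 5 CPM on average) and the test (DESeq2 1.42.0 Wald, limma 3.58.1 voom with sample weights, or edgeR without robust dispersion). The replicate number as a block, values divided by 4 and each library left out were also run. A fit without saline 1 and ointment 5 was chosen after seeing the data.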

Additional observations from a re-analysis of the deposited data

Results flagged for a closer look

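Of 46 groups of 5 libraries examined (each of the 10 genes, the summed cell type markers and the library totals), 6 held a library far from the other 4 by Dixon's criterion at 95%. For normally distributed and independent values, chance alone reaches that in about 1 of 20 groups. The values were not log-transformed and the groups share libraries, so that rate need not hold here. Olr1 was 20.5 CPM in ointment 5, where the remaining ointment libraries had 5.90 to 8.97 CPM. Msr1 was 17.9 CPM in saline 1, where the remaining saline libraries had 36.2 to 42.5 CPM. Stab2 was 3.44 CPM in saline 3, against 1.14 to 1.75 CPM. Summed keratinocyte markers were 29696 CPM in ointment 2, where the rest of that group had 16191 to 19359 CPM. Summed red cell markers were 3049 CPM in ointment 4, where the rest had 221 to 543 CPM, and 3886 CPM in saline 5, where the rest had 362 to 922 CPM. In those libraries Cd163 was lowest of its group in ointment 4, at 240 CPM, and was 198 CPM in saline 5, inside its group's range.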

How the results depend on the processing

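Marco, Msr1, Cd163, Cd5l, Stab1, Mrc1 and Olr1 kept a positive fold change under every alternative run. The sign turned for Stab2 without ointment 3 (-0.158) or ointment 4 (-0.086), for Scarb1 without saline 1 (0.007) or with 4 libraries per group (0.058), for Timd4 without saline 2 (0.003) or saline 3 (0.096), and for Nr1h3 without ointment 1 (-0.007) or saline 4 (-0.002). Of the 10 genes, 2 passed in the analysis reported, 1 with library sizes alone or with no filter (Cd5l lost), 5 with DESeq2's Wald test (Msr1, Mrc1 and Olr1 added) and 0 with 4 libraries per group. Over all genes 310 passed, against 1677 with DESeq2 and 59 with 4 libraries per group. With values divided by 4, 347 of 15739 tested genes passed, and 2 of the 10 genes. DESeq2 called 6 genes for uptake of dying cells, 6 for ligand handling and 3 regulators. Ligand handling had 1 call with no filter and 1 with 4 libraries per group. With the replicate number as a block the counts were 0 over all genes, 0 of the 10 genes, 0 other scavenger receptors and 0 for ligand handling, although 2602 genes had an unadjusted p below 0.05. Same-numbered libraries did not deviate together (correlations -0.077 to 0.056), and 1 of 5 ointment libraries was most like the saline library of its own number. The values thus showed no pairing by number, and the labels do not state whether the samples were paired. Leaving out each library in turn gave 102 to 422 calls over all genes, 0 to 2 of the 10 genes, 2 to 3 other scavenger receptors, 0 to 1 for uptake of dying cells, 1 to 4 for ligand handling and 0 for regulators. In those fits the log2 fold change was -0.158 to 0.454 for Stab2, -0.163 to 0.007 for Scarb1, -0.417 to 0.096 for Timd4 and -0.007 to 0.22 for Nr1h3. The cause of these changes was not tested. Stab2, Timd4 and saline Marco rest on few counts, and the part of counting error in their spread between libraries was not tested.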

Other observations

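The 3 C1q genes had values that jumped between libraries of the same group, and they are given as values, chosen after they were seen. They encode the chains of complement C1q, which macrophages secrete as a single complex. C1qa was 167, 139, 894, 645 and 140 CPM in ointment libraries 1 to 5, against 73.2, 109, 127, 454 and 138 CPM in saline libraries 1 to 5. C1qc was 152, 695, 206, 552 and 695 CPM in ointment libraries 1 to 5, against 287, 400, 478, 378 and 556 CPM in saline libraries 1 to 5, so that ointment 3 held the most C1qa and little C1qc. C1qb was 824, 176, 1048, 704 and 173 CPM in ointment libraries 1 to 5, against 87.9, 106, 590, 459 and 685 CPM in saline libraries 1 to 5. The C1q genes are part of the macrophage sum used above, where C1qa, C1qb and C1qc made up 3.87, 5.71 and 4.49% with ointment and 3.34, 7.15 and 7.79% with saline.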
